A study of Mus musculus with 3 samples.

Results

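The 32 genes described here drive chromosome condensation, spindle assembly, chromosome separation and the final cut between daughter cells. They were taken by symbol, from a list of mitosis and spindle genes, out of the 32285 genes listed in the count matrices, and all 32 were found. They were followed in cells of the mandibular condyle, the cartilage-capped head of the lower jaw in the temporomandibular joint, from wild-type C57BL6 mice of 3 ages, the embryo at day 16.5 (E16.5), the newborn (P0) and the adult of 13 weeks (13w). Each stage was 1 library of cells pooled from 7 to 20 mice, freed with collagenase A and dispase 2 and sorted as live (Calcein-positive, DAPI-negative). No treatment or altered allele was used. With 1 library a stage, differences between stages have no replicate check and no test was run. All intervals are 95% intervals and cover counting error only.

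Dividing cells make most mitotic messages in a short window before and during division and clear them on leaving it. Cyclin B with the kinase Cdk1 opens mitosis, the spindle checkpoint holds chromosome separation until every kinetochore is attached, and the anaphase-promoting complex with Cdc20 then marks cyclin B and securin for destruction. In growing condylar cartilage, division takes place mainly in the fibrous and progenitor layers and in flattened chondrocytes, whereas hypertrophic chondrocytes have left the cell cycle. Many late cell cycle genes carry a cell cycle homology region (core TTTGAA) and NF-Y boxes (CCAAT) close to their start, through which MuvB and NF-Y complexes are known to act.

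TTTGAA was looked up together with its reverse complement, which reads TTCAAA. The NF-Y box CCAAT was looked up in the same way on either strand, where the other strand reads ATTGG. The windows were RefSeq promoter windows of build GRCm38.p6, from 250 bases before to 50 after the start. The deposited counts use build GRCm39, so these coordinates are RefSeq's and not those of the count files. Of the 32 genes, 28 matched, with 29 windows, and Kif20a, Ccna2, Tpx2 and Aurkb did not. TTTGAA was present in 21 of the 29 windows (72.4%) and in 17.9% of all 32851 promoter windows. CCAAT was present in 23 of 29 (79.3%) against 37.4% of all windows, and both were present in 20 of 29 (69.0%) against 6.95%. Between 100 bases before the start and 50 after it, both were found in 62.1% of the mitotic windows and in 1.93% of all. The next lines show the 110 bases before the start of 4 genes that act at different steps of mitosis and hold both sequences, 5′ to 3′ on the coding strand. Capitals mark each TTTGAA or CCAAT on either strand. They are Cdk1 (chr10:69352913-69353022, minus strand), Cdc20 (chr4:118437344-118437453, minus), Ube2c (chr2:164769819-164769928, plus) and Top2a (chr11:99024190-99024299, minus).
Cdk1: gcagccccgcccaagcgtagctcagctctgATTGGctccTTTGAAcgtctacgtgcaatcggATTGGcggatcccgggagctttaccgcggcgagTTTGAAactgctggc
Cdc20: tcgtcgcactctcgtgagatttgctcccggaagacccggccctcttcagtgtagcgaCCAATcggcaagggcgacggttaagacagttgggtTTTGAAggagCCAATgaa
Ube2c: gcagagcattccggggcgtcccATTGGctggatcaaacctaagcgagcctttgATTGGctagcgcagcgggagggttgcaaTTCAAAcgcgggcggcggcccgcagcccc
Top2a: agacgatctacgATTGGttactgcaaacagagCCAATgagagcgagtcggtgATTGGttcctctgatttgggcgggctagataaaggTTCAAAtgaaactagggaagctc

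In 3 further genes the TTTGAA lay at or just after the start, and 26 bases around it are shown in the same way. They are Ccnb2 (chr9:70421535-70421560, minus), Plk1 (chr7:122159455-122159480, plus) and Cenpf (chr1:189688069-189688094, minus).
Ccnb2: cggcgcggtaTTTGAAtcgcggaccg
Plk1: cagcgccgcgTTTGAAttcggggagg
Cenpf: cggcgggcagTTTGAAtcgctcgtgc

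Ccnb1, Bub1 and Cenpe had CCAAT without TTTGAA, Kif2c had TTTGAA without CCAAT, and Birc5, Mad2l1, Knstrn, Nusap1 and Tacc3 had neither in the window. Among other cell cycle lists, TTTGAA was in 28 of 50 windows (56%) of further mitosis genes and in 3 of 31 (9.68%) of DNA replication genes. A match describes these letters only, and none was related to a measured binding of a factor.

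The libraries held 5458 (E16.5), 4853 (P0) and 8899 (13w) barcodes with 103827875, 98486931 and 115836876 unique molecular identifiers (UMIs, each one captured RNA molecule). Cells were kept from 500 genes upward and up to 10% mitochondrial UMIs, which left 4562, 3999 and 8028, with median UMIs of 17401.5, 17954 and 11010. The mitochondrial limit removed 15.4%, 16.5% and 9.21% of barcodes. Between 10 and 15 barcode sequences were shared by any pair of libraries. Doublets were left in, because the caller's own threshold marked 6, 0 and 0 cells. Removing the highest-scoring 3.66%, 3.65% and 6.91% was run as an alternative. Cells without Ptprc, the pan-leukocyte receptor CD45, were divided by Col9a1, a cartilage collagen chain. Those with 3 or more Col9a1 UMIs per 10000 are called Col9a1-high (1011, 1743 and 1598 cells) and those below are called remaining cells (3407, 2240 and 6099). Cells with a Ptprc UMI (144, 16 and 331) were kept apart. Median UMIs per cell were 40337, 36416 and 23783 in Col9a1-high cells and 15027, 11773.5 and 9586 in remaining cells. Col2a1, the main cartilage collagen, was at 10623, 19047 and 42036 counts per 1000000 UMIs of the class (CPM) in Col9a1-high cells against 149, 291 and 3317 CPM in remaining cells, so the Col9a1 division followed a second cartilage gene.

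Among cells without a Ptprc UMI, the mitotic genes were most abundant in remaining cells of the embryo. Summed over the 32 genes, remaining cells of the embryo held 3278 CPM (interval 3264 to 3293), those of the newborn 2354 CPM (2337 to 2371) and those of the adult 1583 CPM (1574 to 1592), a falling order with age. Col9a1-high cells held 1128, 568 and 746 CPM, lower than remaining cells at each stage and lowest at birth. Ptprc-positive cells held 2081, 3375 and 2402 CPM, and the P0 value came from 16 cells. None of the 32 genes was at 0 in any of these classes.

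**Figure D1:**
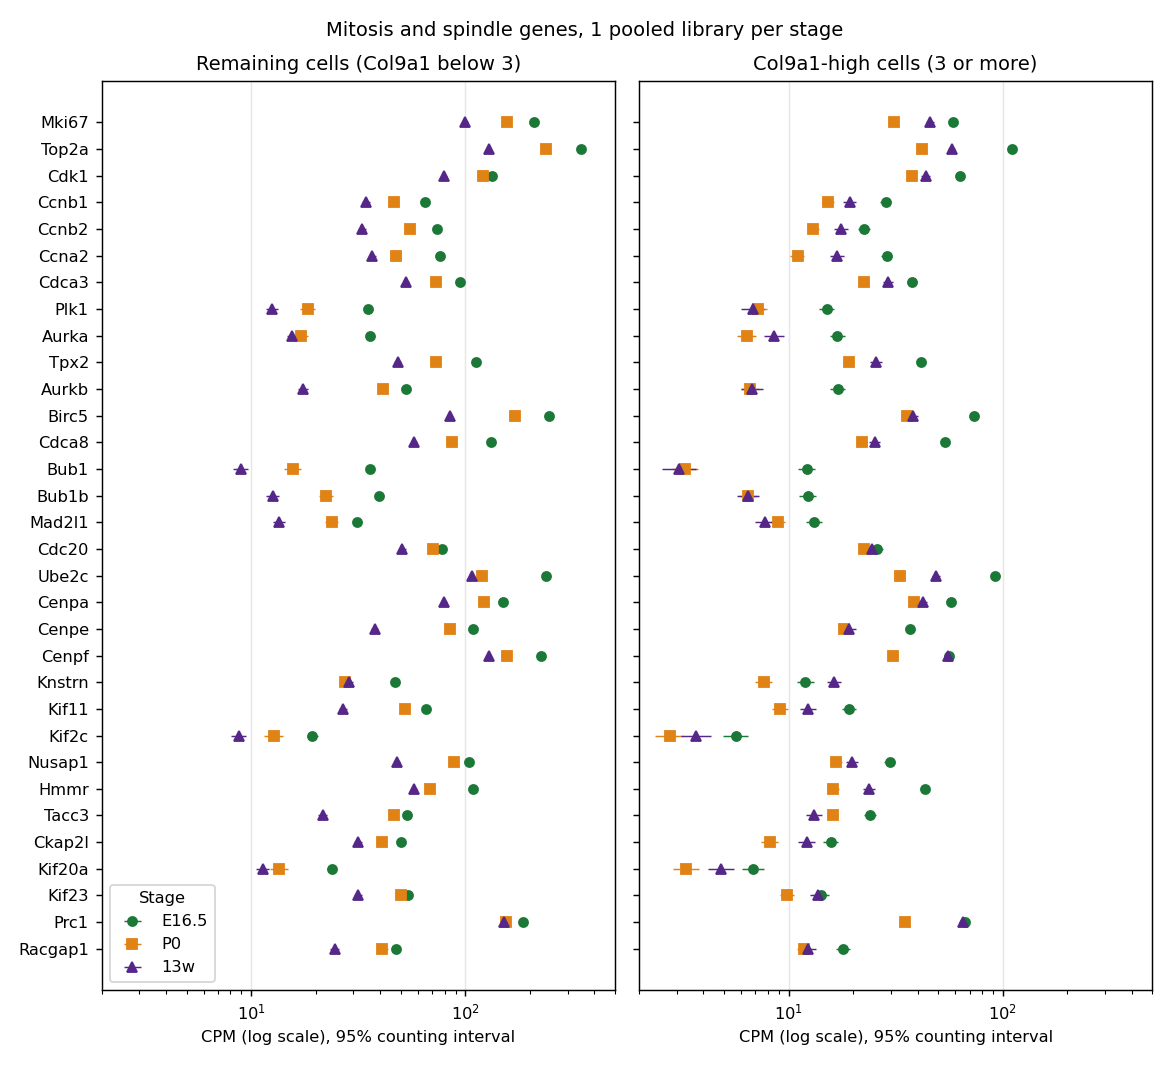
Level of each of the 32 genes (CPM, log axis) in remaining cells (left) and Col9a1-high cells (right), with 1 point per library and 95% Poisson intervals. In remaining cells most genes run from E16.5 down to 13w, while Prc1 (186, 155 and 152 CPM) is nearly level from P0 to 13w. In Col9a1-high cells the P0 points are mostly the lowest.

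To describe single genes, a gene was counted as measured in a comparison when its mean CPM over both groups was at least 5. It was called higher or lower when the ratio was 2-fold or more and the 95% interval of the ratio did not include 1. In remaining cells at 13w against E16.5, 20 of 32 genes were called lower and 0 higher. Over all genes measured there, 16.4% were called lower and 12.6% higher. The median log2 ratio was -1.13 for the 32 genes and -0.20 over all genes measured. P0 against E16.5 gave 2 of 32 lower and 0 higher (all genes 6.95% and 5.47%), with a median of -0.45 against -0.14. 13w against P0 gave 4 of 32 lower and 0 higher (all genes 8.17% and 9.13%), with a median of -0.60 against -0.05. The counts of these 2 steps were near the share called over all genes, and no result is read from them. Calls of single genes at these steps are given below as values only. With TMM factors, 1 of the 2 and 2 of the 4 were still called. With TMM scaling the median over all genes for 13w against E16.5 moved from -0.20 to 0.10 and that of the mitotic genes from -1.13 to -0.85. Of the 32 genes, 9 were then called lower (all genes 10.5% lower and 17.3% higher).

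Chromosome structure was represented by Mki67, whose protein coats mitotic chromosomes, and Top2a, the topoisomerase that untangles sister DNA. In remaining cells Mki67 was at 208 CPM at E16.5, 156 in newborns and 100.1 at 13w, and Top2a at 348, 238 and 129 CPM. Both were highest in the embryo and lowest in the adult, and both were called lower at 13w than at E16.5 (log2 -1.06, interval -1.10 to -1.01, and log2 -1.43, interval -1.46 to -1.39). In Col9a1-high cells Mki67 was at 58.5, 31.2 and 45.7 CPM and Top2a at 111, 41.9 and 57.7 CPM, with the lowest value at birth.

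Among the genes of mitotic entry, Cdk1, the kinase that starts mitosis, was at 134, 121 and 79.5 CPM in remaining cells and 63.1, 37.8 and 43.6 CPM in Col9a1-high cells. Ccnb1, its cyclin B1 partner, was at 65.0, 46.6 and 34.4 CPM in remaining cells and 28.4, 15.2 and 19.3 CPM in Col9a1-high cells. Neither gene was called between any pair of stages. Of the 5 entry genes, which also include Ccnb2, Ccna2 (cyclin A2) and Cdca3, 2 were called lower at 13w than at E16.5 in remaining cells, Ccnb2 and Ccna2.

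In remaining cells, all 3 genes of the group of mitotic kinases and their activator were called lower at 13w than at E16.5. In Col9a1-high cells 1 of the 3 was called lower, Plk1. Plk1, which matures centrosomes and opens sister cohesion, was at 35.2, 18.3 and 12.5 CPM in remaining cells and 15.1, 7.21 and 6.79 CPM in Col9a1-high cells. Aurka, the centrosomal Aurora kinase, was at 35.8, 17.0 and 15.6 CPM in remaining cells, a drop that lay almost wholly between E16.5 and P0 (log2 -1.07, interval -1.21 to -0.94). The call at 13w against E16.5 in remaining cells was shared by Plk1, Aurka and Tpx2, the spindle protein that activates Aurora A.

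The chromosomal passenger complex corrects faulty attachments and is needed for cytokinesis. Its kinase Aurkb was at 52.7, 41.3 and 17.5 CPM in remaining cells and 16.9, 6.63 and 6.74 CPM in Col9a1-high cells. Its subunit Birc5 (survivin) was at 246, 170.4 and 84.5 CPM in remaining cells and 73.2, 35.7 and 38.2 CPM in Col9a1-high cells. In remaining cells both had a lower ratio for 13w against P0 than for P0 against E16.5. Both were called lower at 13w than at P0, Aurkb at log2 -1.24 (interval -1.35 to -1.12). Birc5 was close to the 2-fold limit, at log2 -1.01 (interval -1.07 to -0.96). With Cdca8 (borealin), all 3 passenger genes were called lower at 13w than at E16.5 in remaining cells.

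A pair of spindle checkpoint genes had the lowest ratios of the 32 at 13w against E16.5 in remaining cells. Bub1, a checkpoint kinase at kinetochores, was at 35.8, 15.6 and 8.95 CPM in remaining cells and 12.1, 3.29 and 3.09 CPM in Col9a1-high cells. It was called lower at P0 than at E16.5 in remaining cells (log2 -1.20, interval -1.35 to -1.06) and in Col9a1-high cells (log2 -1.88, interval -2.12 to -1.64), and its 13w against E16.5 ratio in remaining cells was log2 -2.00 (interval -2.13 to -1.87). Bub1b, the checkpoint protein BubR1, was next at log2 -1.65 (interval -1.76 to -1.53), from 39.4 CPM at E16.5 through 22.4 at P0 to 12.6 at 13w. The anaphase side of the same pathway was less even. Cdc20, the activator that the checkpoint restrains, was at 77.6, 70.5 and 50.8 CPM in remaining cells and 26.0, 22.4 and 24.6 CPM in Col9a1-high cells, and was called between no pair of stages. Ube2c, the ubiquitin-conjugating enzyme of the anaphase-promoting complex, was at 238, 120.1 and 107 CPM in remaining cells and 91.7, 33.0 and 48.8 CPM in Col9a1-high cells.

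At centromeres and kinetochores, Cenpf was at 226, 156 and 129.5 CPM in remaining cells and 56.0, 30.7 and 55.4 CPM in Col9a1-high cells. Its E16.5 and 13w levels in Col9a1-high cells were within counting error of each other (log2 -0.02, interval -0.10 to 0.07), although Cenpf was at log2 0.33 with TMM factors. Cenpe, a kinetochore motor, was at 108, 84.7 and 37.7 CPM in remaining cells and was called lower at 13w than at P0 (log2 -1.17, interval -1.25 to -1.09). Knstrn, a kinetochore and spindle protein, stood apart from it, at 47.0, 27.5 and 28.6 CPM in remaining cells and 12.0, 7.67 and 16.3 CPM in Col9a1-high cells. Its 13w level in remaining cells was within counting error of P0 (log2 0.06, interval -0.06 to 0.18), and Knstrn was at log2 0.22 with TMM factors. Cenpa, the centromeric histone H3, was not called between stages in either class.

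Of the 6 spindle motors and microtubule binders (Kif11, Kif2c, Nusap1, Hmmr, Tacc3 and Ckap2l), 4 were called lower at 13w than at E16.5 in remaining cells. Tacc3, which stabilises spindle fibres, was at 53.4, 46.2 and 21.5 CPM there and was called lower at 13w than at P0 (log2 -1.10, interval -1.21 to -0.99). Kif11, the motor that pushes spindle poles apart, was at 65.7, 52.2 and 26.8 CPM.

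Of the 4 midzone and cytokinesis genes (Kif20a, Kif23, Prc1 and Racgap1), 1 was called lower at 13w than at E16.5 in remaining cells. Prc1, which bundles the antiparallel microtubules of the central spindle, was at 186, 155 and 152 CPM in remaining cells and 66.8, 35.1 and 65.0 CPM in Col9a1-high cells. Its 13w against E16.5 ratio in remaining cells was the nearest to 0 of the 32 (log2 -0.29, interval -0.33 to -0.25), followed by Cdc20 (log2 -0.61, interval -0.67 to -0.55). Kif20a, a central spindle motor, was at 23.9, 13.5 and 11.3 CPM in remaining cells and 6.83, 3.32 and 4.85 CPM in Col9a1-high cells, and it was the gene called. Kif23, a subunit of centralspindlin, was the gene nearest to level between E16.5 and P0 in remaining cells, at 53.7 and 49.9 CPM (log2 -0.10, interval -0.19 to -0.02, and log2 0.02 for Kif23 with TMM factors), and stood at 31.4 CPM at 13w.

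Relative makeup was also compared as each gene's share of the UMIs of all 32 in Ptprc-negative cells, which removes the overall level. Prc1 made up 5.72% at E16.5, 6.46% in newborns and 9.40% at 13w, and Cenpf 6.55%, 6.23% and 8.02%. Bub1 made up 1.09%, 0.635% and 0.532%, Top2a 10.5%, 9.21% and 8.07%, and Birc5 7.33%, 6.92% and 5.29%. Mki67 kept a like share, at 6.14%, 6.25% and 6.28%. The adult mitotic messages thus held relatively more of Prc1, Knstrn (1.37%, 1.23% and 1.89%) and Cdc20 (2.35%, 3.31% and 3.23%), and relatively less of Bub1 and Aurkb (1.59%, 1.56% and 1.06%).

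**Figure D2:**
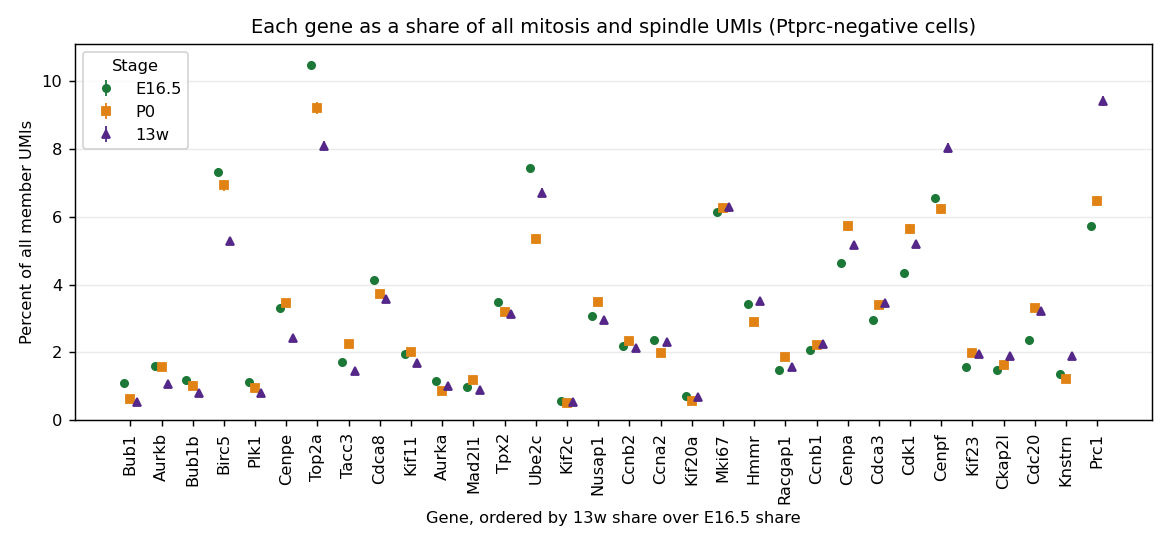
Each gene's share of all UMIs of the 32 genes in Ptprc-negative cells (percent, linear axis), 1 point per library. Prc1 moves from 5.72% to 9.40% and Bub1 from 1.09% to 0.532% between E16.5 and 13w, and Mki67 stays between 6.14% and 6.28%.

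In CPM, Col9a1-high cells held less of every mitotic gene than remaining cells of the same library. This is a share of UMIs and not an amount per cell. Before thinning, the median number of mitotic UMIs per cell was 4, 3 and 1 in the deeper Col9a1-high cells. In remaining cells it was 4, 2 and 0. At E16.5, 32 of 32 genes were called lower in Col9a1-high cells (all genes 15.1% lower and 8.69% higher), with a median log2 ratio of -1.56 against -0.18 over all genes. At P0, 32 of 32 were called lower (all genes 14.1% and 9.78%), with a median of -2.05 against -0.12. At 13w, 19 of 32 were called lower and 0 higher (all genes 10.3% and 3.45%), with a median of -1.13 against -0.30. Under TMM scaling 25 genes were called lower in the embryo, 32 in newborns and 3 in the adult (all genes 10.1%, 10.3% and 5.19% lower). With median-of-ratios factors the counts were 23, 32 and 3 (all genes 9.28%, 10.1% and 5.19%). The adult count of 3 was near the share over all genes, and no result is read from it. The adult median with TMM was -0.78 against 0.05 over all genes. When each cell counted equally (a mean over cells), 0 genes were called in the adult (all genes 9.13% lower). The median was then -0.49 against -0.29 over all genes. The lowest ratios at E16.5 were those of Cenpf (log2 -2.01, interval -2.08 to -1.95) and Knstrn (log2 -1.97, interval -2.12 to -1.83), and the highest were those of Cdk1 and Aurka, both at log2 -1.08. At P0, Aurkb (log2 -2.64, interval -2.80 to -2.48) and Kif11 (log2 -2.52, interval -2.66 to -2.38) were lowest, and Plk1 (log2 -1.35, interval -1.53 to -1.17) and Aurka (log2 -1.42, interval -1.61 to -1.23) highest. At 13w, Bub1 (log2 -1.54, interval -1.82 to -1.26) and Aurkb (log2 -1.37, interval -1.57 to -1.18) were lowest, and Tacc3 (log2 -0.71, interval -0.86 to -0.57) and Mad2l1 (log2 -0.79, interval -0.97 to -0.60) highest.

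The step in the mitotic level lay above the Col9a1 threshold of 3. At E16.5 the summed level was 2979 CPM in cells without a Col9a1 UMI, 3629 CPM in cells above 0 and below 3 per 10000, 2375 CPM from 3 to below 10, 371 CPM from 10 to below 30, and 857 CPM in the 41 cells at 30 and over. The same bins held 2041, 2654, 1835, 409 and 66.7 CPM at P0 and 1353, 2059, 1357, 231 and 45.4 CPM at 13w. In all 3 libraries cells above 0 and below 3 held more than cells without Col9a1, and the largest step down in CPM came at 10 per 10000. As a ratio, the P0 step at 30 (409 to 66.7 CPM) was larger than that at 10 (1835 to 409 CPM). Against remaining cells, the cells from 3 to below 10 gave 1, 0 and 0 genes called at E16.5, P0 and 13w, with medians of -0.44, -0.29 and -0.22; this range was chosen after seeing the data. Col9a1-high cells with 10 or more UMIs of Col10a1, the collagen of hypertrophic chondrocytes, per 10000 held 172, 209 and 180.4 CPM.

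**Figure D3:**
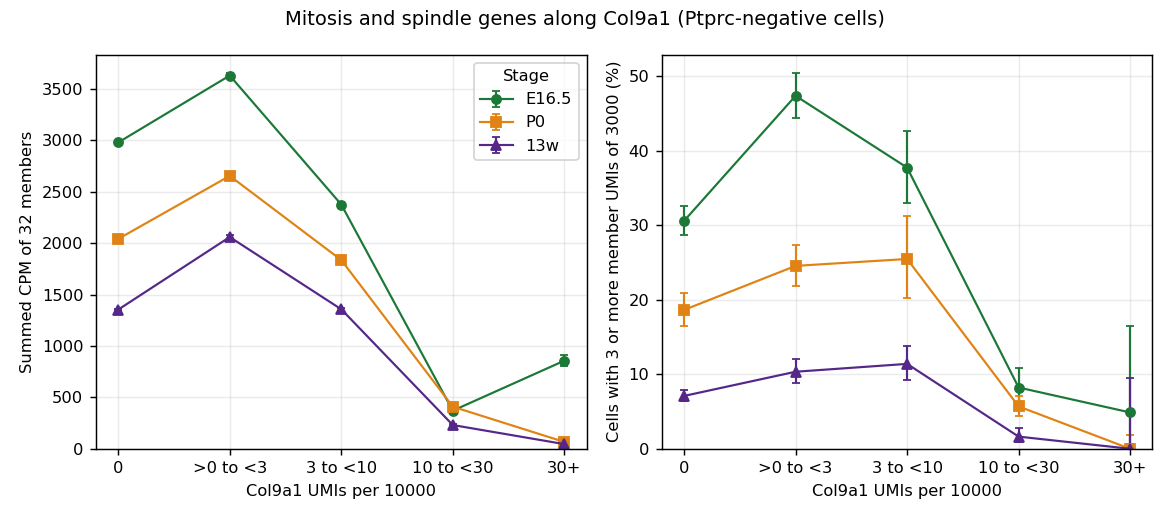
Mitotic genes by Col9a1 level in Ptprc-negative cells, as the summed level (CPM) and as the share of cells with 3 or more mitotic UMIs after thinning to 3000 UMIs (percent), 1 line per library with 95% counting intervals. Each library steps down at 10 Col9a1 UMIs per 10000, from 2375 to 371 CPM at E16.5, 1835 to 409 at P0 and 1357 to 231 at 13w.

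Stage comparisons within Col9a1-high cells changed with the Col9a1 range used. Whether the mix of Col9a1 levels underlies this was not tested. The range from 3 to below 10 held 41.2%, 15.9% and 51.0% of Col9a1-high cells at E16.5, P0 and 13w, and 78.1%, 43.9% and 83.9% of their mitotic UMIs. In the whole class, P0 against E16.5 had 14 of 31 measured genes lower and 0 higher (all genes 5.18% and 4.71%), with a median of -0.93 against -0.08. The 14 included all 3 genes of the kinase and activator group and all 3 passenger genes. Ube2c (log2 -1.47, interval -1.55 to -1.40) had the second lowest ratio after Bub1, and Cdc20 (log2 -0.21, interval -0.33 to -0.10) and Kif23 (log2 -0.53, interval -0.70 to -0.36) were nearest to level. At 10 or more Col9a1 UMIs per 10000 the median was -0.05 with 0 genes called, and from 3 to below 10 it was -0.34 with 1 called.

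For 13w against P0 the sign of the median changed with the Col9a1 range. In the whole Col9a1-high class 1 of 29 measured genes was higher, Knstrn (log2 1.09, interval 0.92 to 1.26), and 0 were lower (all genes 6.75% higher and 11.4% lower). The median was 0.37 against -0.28, with Prc1 next (log2 0.89, interval 0.81 to 0.97) and Tacc3 (log2 -0.28, interval -0.44 to -0.13) and Mad2l1 (log2 -0.19, interval -0.39 to 0.01) lowest. At 10 or more Col9a1 UMIs per 10000 the median was -0.89 with 8 genes lower (all genes 12.2%), and Knstrn was at log2 -0.43. From 3 to below 10 the median was -0.46. 13w against E16.5 had 4 of 31 lower and 0 higher (all genes 18.5% and 9.51%), a share below that of all genes, namely Bub1 (log2 -1.97, interval -2.27 to -1.69), Aurkb (log2 -1.33, interval -1.54 to -1.13), Plk1 and Cdca8, with a median of -0.64 against -0.37. Knstrn (log2 0.45, interval 0.27 to 0.62) had the highest ratio there, and from 3 to below 10 the median was -0.86 with 14 lower (all genes 22.2%).

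To describe the number of cells with mitotic messages apart from the amount in each, every cell was thinned at random to 3000 UMIs. Shallower cells were left out (162, 123 and 293 Ptprc-negative cells). Cells with 3 or more UMIs of the 32 genes were 32.4% at E16.5 (31.0 to 33.9, 1381 of 4256), 15.5% in newborns (14.4 to 16.7, 600 of 3860) and 7.59% at 13w (7.00 to 8.22, 562 of 7404). Without thinning the shares were 61.6%, 44.9% and 13.8%. In remaining cells the thinned share was 36.2%, 21.2% and 7.88%, and in Col9a1-high cells 20.0%, 8.09% and 6.48%. Both classes were highest in the embryo, and the 2 postnatal values of Col9a1-high cells had overlapping intervals (6.83 to 9.51 and 5.30 to 7.83). Col9a1-high cells with 10 or more Col10a1 UMIs per 10000 gave 2.44% (6 of 246), 2.28% (12 of 526) and 1.64% (3 of 183). Hypertrophic chondrocytes are known as cells that no longer divide, and these shares are given as the nearest comparison for free RNA. Of these 6, 12 and 3 cells, 2, 6 and 2 had 10 or more mitotic UMIs, and whether they divide was not tested. Before thinning, the Col10a1 cells had median UMIs of 46514, 35984.5 and 36143, against medians of 22365, 21095.5 and 20399 in the Ptprc-negative cells with 3 or more mitotic UMIs.

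Across Col9a1 bins the thinned share ran 30.6%, 47.4%, 37.8%, 8.23% and 4.88% at E16.5, 18.6%, 24.6%, 25.5%, 5.69% and 0% at P0, and 7.09%, 10.3%, 11.4%, 1.63% and 0% at 13w, from cells without Col9a1 to cells at 30 and over. The highest-Col9a1 bin had 0 of 196 cells at P0, with an interval up to 1.86%, and 0 of 37 at 13w, with an interval up to 9.49%. At 10 to below 30 the 13w share was close to that of the Col10a1 cells. In Ptprc-negative cells as a whole, Mki67 and Top2a also fell with age. Few of the Col10a1 cells had a UMI of either gene, and no order of stages is read from them. Mki67 had a UMI in 20.4% of thinned Ptprc-negative cells at E16.5, 10.5% in newborns and 5.35% at 13w. In the Col10a1 cells it had a UMI in 0.407%, 1.71% and 0% (0 of 183). Top2a had a UMI in 24.2%, 13.0% and 6.83% of Ptprc-negative cells and in 2.85%, 3.04% and 1.64% of the Col10a1 cells.

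Cells with 3 or more mitotic UMIs, called mitotic cells from here on although the count does not show a cell's phase, made up a smaller share with age, and those of 13w held more mitotic RNA. Among cells with 3 or more mitotic UMIs, the median thinned number was 16 at E16.5, 19.5 in newborns and 30 at 13w, and the mean was 20.1, 20.1 and 30.4. The 32 genes made up 0.652%, 0.649% and 1.05% of the full UMIs of these cells, and the median number of the 32 genes detected was 11, 12 and 16. In remaining cells the medians were 16, 22 and 30.5, and in Col9a1-high cells 12, 13 and 21.5. Few cells lay at the threshold, with 137, 56 and 28 at exactly 3 UMIs and 285, 160 and 136 at 2. Without thinning, the top 5% of Ptprc-negative cells held 41.8%, 59.5% and 88.8% of the mitotic UMIs, and 11.4%, 20.9% and 49.7% of cells held none.

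**Figure D4:**
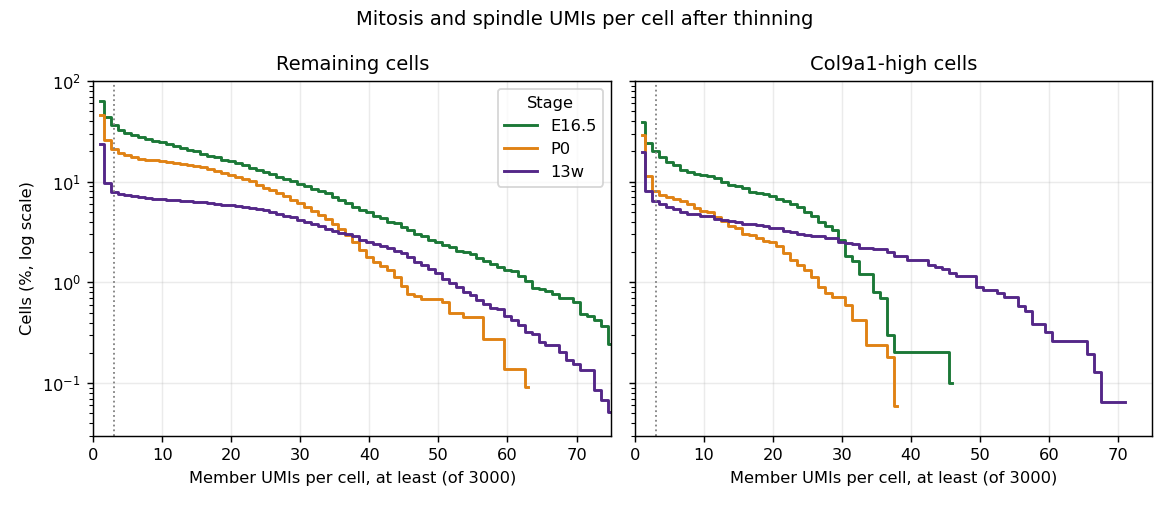
Share of cells (percent, log axis) with at least a given number of UMIs of the 32 genes after thinning to 3000 UMIs. Remaining cells are on the left and Col9a1-high cells on the right, 1 line per library. The share at 3 or more is 36.2% at E16.5, 21.2% in newborns and 7.88% at 13w in remaining cells. In Col9a1-high cells it is 20.0%, 8.09% and 6.48%. Among those cells the median number is 16, 22 and 30.5 in remaining cells and 12, 13 and 21.5 in Col9a1-high cells.

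Most of the genes were detected in more of the adult mitotic cells. This goes with the larger number of mitotic UMIs in those cells (median 16, 19.5 and 30) and is not a separate result. For each gene, cells were chosen by 3 or more UMIs of the other 31, so that the gene itself did not choose them. The median share with a UMI of the gene left out was 30.8% at E16.5, 33.8% in newborns and 45.3% at 13w. The share was highest at 13w for 29 of 32 genes, and for 19 its 13w interval lay above both others. Prc1 was found in 49.1% (46.4 to 51.8), 59.9% (55.8 to 63.9) and 76.5% (72.8 to 80.0) of such cells. Ube2c was found in 52.0%, 48.9% and 75.1%, and Cdc20 in 28.2%, 37.1% and 53.6%. The 3 exceptions were Bub1 (18.5%, 10.5% and 15.3%), Bub1b (21.1%, 13.7% and 19.6%) and Tacc3 (24.4%, 31.6% and 31.4%).

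**Figure D5:**
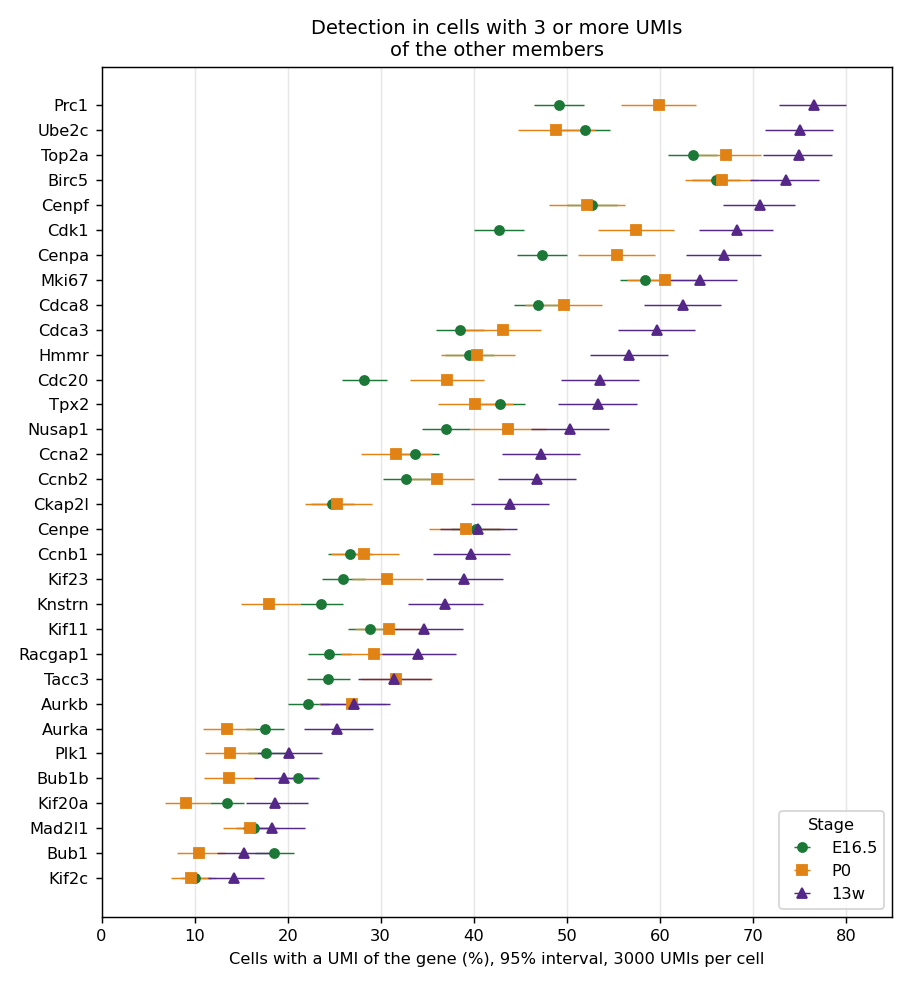
Share of Ptprc-negative cells with a UMI of each gene (percent, thinned to 3000 UMIs) among cells with 3 or more UMIs of the other 31 genes, 1 point per library with exact binomial intervals. For 29 of 32 genes the 13w point is the highest, with Prc1 at 76.5%, while Bub1 is highest at E16.5 (18.5%).

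Genes of DNA replication, which are made earlier in the cycle, had lower adult ratios than the mitotic genes in the same cells. In remaining cells at 13w against E16.5, 30 of 31 measured replication genes were lower, with a median of -2.19. Over all genes measured there, 16.4% were lower and 12.6% higher. The largest changes were those of Ccne1 (5.25 against 61.1 CPM), Chaf1b (2.39 against 26.4 CPM) and Mcm2 (3.69 against 31.5 CPM). Further mitosis genes outside the 32 gave 33 of 53 lower and 1 higher with a median of -1.18, close to the 32. Cells with 3 or more mitotic UMIs also had 3 or more replication UMIs in 83.6% at E16.5 (81.5 to 85.5), 69.2% in newborns (65.3 to 72.8) and 66.9% at 13w (62.8 to 70.8), and in Col9a1-high cells in 78.3%, 62.2% and 46%. Among cells with fewer than 3 mitotic UMIs the shares were 40.5%, 12.8% and 5.66%. Of the 24 regulators, 22 were measured in remaining cells, with 8 lower and 2 higher at 13w than at E16.5 (all genes 16.4% and 12.6%). The cyclin-dependent kinase inhibitors had the largest ratios. Cdkn1a (p21) was at 38.2, 143 and 739 CPM, and Cdkn1c (p57), an inhibitor high in cartilage that is leaving the cycle, was at 1932, 1117 and 108 CPM.

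In summed CPM, mitotic cells held less of the chondrocyte and osteoblast marker lists than other Ptprc-negative cells of their library. The summed chondrocyte markers were at 2644 CPM in cells with 3 or more mitotic UMIs against 14083 CPM in the others at E16.5, 9702 against 29139.7 CPM at P0, and 15245 against 30501 CPM at 13w. Osteoblast markers were at 317 against 1962 CPM, 648 against 2297 CPM, and 3000.3 against 20809 CPM. That list includes Ibsp, at 2358, 2399 and 38769 CPM in Col9a1-high cells against 236, 140 and 5755 CPM in remaining cells. The sum was not split by gene, so it is not read as a result about osteoblasts. At full depth, 71.0%, 79.3% and 90.6% of mitotic cells had 2 or more UMIs of that list, against 63.5%, 76.8% and 89.4% of the others. Mural cell markers were at 111 against 80.5 CPM at E16.5, 367 against 182 CPM at P0, and 189.7 against 175 CPM at 13w, where 2 of the 5 markers were at 0 in mitotic cells. At 13w the mitotic cells without a Ptprc UMI also carried neutrophil markers (2766 against 195 CPM), and pan-blood markers (77.5 against 12.6 CPM). With cells carrying blood markers set apart, 13w against E16.5 had 20 genes lower in remaining cells (all genes 16.6%). The 13w share of remaining cells with 3 or more mitotic UMIs was then 7.40%. With cells carrying endothelial, mural or muscle markers or haemoglobin left out, that share was 32.5% at E16.5, 16.5% in newborns and 6.16% at 13w. Col9a1-high cells were 14.3%, 22.5% and 17.8% of mitotic cells and 23.2%, 43.2% and 20.8% of all thinned cells, a smaller share of mitotic cells than of all cells at E16.5 and P0, while the 13w intervals overlapped (14.7 to 21.2 and 19.9 to 21.8).

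Ptprc-positive cells held mitotic cells in all 3 libraries. After thinning, 23.5% (32 of 136), 20% (3 of 15) and 31.0% (94 of 303) had 3 or more mitotic UMIs. Their unthinned shares were 45.1%, 37.5% and 39.6%. Against remaining cells at 13w, 5 of 32 genes were higher and 0 lower (all genes 14.5% higher and 17.9% lower), a share near that of all genes, with a median of 0.65 against -0.10. The 5 were Ccnb2 (log2 1.21, interval 1.04 to 1.37), Cdca8 (log2 1.14, interval 1.01 to 1.27), Aurkb, Ube2c and Mki67, which stood at 214 CPM against 100.1 CPM. Prc1 (log2 -0.59, interval -0.73 to -0.45) and Cenpf (log2 -0.33, interval -0.47 to -0.19) had the lowest ratios, at 101 and 103 CPM. Replication genes gave 27 of 29 higher, with a median of 1.65. Within Ptprc-positive cells at 13w, B cell markers were at 609.7 CPM in mitotic cells against 46.1 CPM in the others, and neutrophil markers at 68924 against 91798 CPM.

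In every stage comparison the share of higher calls over all genes depended on scaling. It was 34.0% to 52.8% of calls over the 6 stage comparisons with total UMIs and 55.5% to 66.2% with TMM factors, and 25.2% to 41.0% against 51.4% to 57.9% over the 3 Col9a1 comparisons. The sign of the median of the 32 genes did not change under TMM or median-of-ratios factors in any of the 10 comparisons. Stage, library depth, tissue dissociation, pooled animals and the library itself cannot be told apart in this design.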

How the data were processed

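Whole-number UMI counts per gene and cell were deposited by the authors as 1 filtered 10x matrix per stage, and the submitters' processing notes name Cell Ranger and build GRCm39. No doublet step is given in the sources used here. The members and all gene lists were chosen with earlier results of these data known. Counts were summed over the cells of a class and divided by the class total (CPM), with exact Poisson intervals for levels, conditional binomial intervals for ratios and Clopper-Pearson intervals for shares. A 3′ UMI counts a molecule, so no length scaling was applied. Cells were thinned once to 3000 UMIs with a fixed seed. Doublets were scored with Scrublet in scanpy 1.11.5, and TMM factors came from edgeR 4.0.16, used for scaling only. The calculation was tested on simulated data. Values are given for 12 genes named by rule, for the 2 highest and 2 lowest ratios in each comparison, and for up to 3 genes of each other list; other genes were picked to describe roles after their values were seen. Alternatives covered scaling, fold, minimum level, cell filters, class thresholds, thinning depth, doublets and other cell types.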

Additional observations from a re-analysis of the deposited data

How the results depend on the processing

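No paired analysis was possible because each stage is 1 library and the labels give no replicate numbers, and leaving out a replicate was not run. The cause of each change below was not tested. The share of all genes called also moved with the setting, and it is given in brackets for the same direction. In Col9a1-high cells P0 against E16.5 called 14 genes lower (5.18%), and 27 at 1.5-fold (16.7%). With a 5% mitochondrial limit it was 9 (4.82%), and at Col9a1 thresholds of 1 and 10 it was 25 (6.75%) and 0 (3.62%). It was 24 with other cell types left out (5.74%), 23 with a mean over cells (6.87%) and 1 from 3 to below 10 (4.11%). 13w against P0 called 1 higher (6.75%), and 3 with TMM (10.3%) or median-of-ratios factors (10.55%). It was 4 at 1.5-fold (12.4%), 0 with doublets removed (6.56%) and 8 with other cell types left out (6.98%). At a threshold of 1 it called 0 (6.93%), and at 10 it called 8 lower (12.2%). 13w against E16.5 called 4 lower (18.5%), and 1 with TMM (9.65%), 2 with median-of-ratios (10.5%) and 16 at 1.5-fold (38.1%). At thresholds of 1 and 10 it called 17 (18.8%) and 9 (17.1%). It was 11 with doublets removed (19.4%), 12 with a mean over cells (19.6%) and 14 from 3 to below 10 (22.2%). In remaining cells P0 against E16.5 called 2 lower (6.95%), and 1 with TMM (4.98%) or median-of-ratios (5.10%). It was 12 at 1.5-fold (20.7%), 9 with other cell types left out (9.86%) and 6 with a mean over cells (8.85%). 13w against P0 called 4, and 2 with either scaling, 18 at 1.5-fold and 11 with a mean over cells. 13w against E16.5 called 20 lower (16.4%), and 9 with TMM (10.5%) or median-of-ratios (10.8%) and 31 at 1.5-fold (31.1%). Col9a1-high against remaining cells called 32 lower at E16.5 (15.1%), and 16 at a threshold of 1 (12.6%) and 1 from 3 to below 10 (10.2%). At P0 it called 32 lower (14.1%), and 0 from 3 to below 10 (8.58%). At 13w it called 19 lower (10.3%), and 3 with either scaling (5.19%). It was 32 at 1.5-fold (25.2%), 30 at a threshold of 10 (11.4%) and 29 with doublets removed (11.7%). It was 0 from 3 to below 10 (6.37%) or with a mean over cells (9.13%). Ptprc-positive against remaining cells called 5, and 8 with median-of-ratios, at a threshold of 10 or with blood markers set apart, 20 at 1.5-fold, 9 with doublets removed, 17 with other cell types left out and 10 with a mean over cells.

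Signs turned for 7 called ratios. At a Col9a1 threshold of 10, Cenpe (P0 against E16.5) was at log2 0.00042 and Knstrn (13w against P0) at -0.43. From 3 to below 10 against remaining cells, Aurka was at 0.061 at E16.5, and at P0 Cdk1 was at 0.012, Plk1 at 0.39, Aurka at 0.36 and Cdc20 at 0.0096.

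The share of cells with 3 or more mitotic UMIs at 3000 UMIs was, for E16.5, P0 and 13w, 20.0%, 8.09% and 6.48% in Col9a1-high and 36.2%, 21.2% and 7.88% in remaining cells. At 5000 UMIs it was 23.7% and 10.1% in Col9a1-high cells of E16.5 and P0, and 42.4%, 25.2% and 9.47% in remaining cells. Without thinning it was 63.2%, 51.4% and 19.3%, and 61.1%, 39.8% and 12.4%. With 1 or more UMIs it was 39.6%, 29.0% and 19.7%, and 63.3%, 45.7% and 23.6%. With 5 or more it was 15.7% in Col9a1-high cells of E16.5, and 30.6% and 18.2% in remaining cells of E16.5 and P0. With doublets removed the 13w shares were 4.64% and 7.02%. With other cell types left out the shares were 15.0%, 4.15% and 4.96%, and 32.5%, 16.5% and 6.16%. The order of the 3 stages in remaining cells was the same in each of these. The range from 3 to below 10, the blood marker setting, and for the shares the other cell types setting were added after seeing the data. Depth limits the low genes: Kif2c, Bub1 and Kif20a were under the minimum level in Col9a1-high cells in at least 1 comparison.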
